A study of Mus musculus with 6 samples.

Results

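Serpina6, which encodes the plasma carrier of corticosterone, was described together with 7 other genes of glucocorticoid action in the livers of newborn mice. The 8 members were Serpina6, the glucocorticoid receptor gene Nr3c1, the corticosterone-regenerating enzyme gene Hsd11b1 and the receptor-induced genes Tsc22d3, Fkbp5, Tat, Sgk1 and Zbtb16. Every row of the signal table with one of these gene names was taken, which gave 10 probes of 55681. All 10 probes were above the detection level on all 6 arrays, so the 8 members entered the fit of 30896 features (genes and unnamed probes) without help from one genotype alone. The members were chosen by their known roles together with the deposited signal values of KO against WT, so the differences of its members are a description and carry no test. The other genes of the pathway were tested with every feature on the arrays. Their lists were also chosen with earlier results of these data known, so those p-values are a description and no independent test.

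Livers came from mice of the Cugbp1 KO genotype and from wild-type (WT) mice, taken at 3 days of age, with 3 arrays of each genotype. Cugbp1, now named Celf1, encodes an RNA-binding protein that acts on the splicing, decay and translation of transcripts. The labels give neither strain, allele nor treatment, and they do not say whether the replicates came from separate litters. The p-values therefore cover the spread among these 6 arrays and no more. The arrays were one-colour Agilent whole-mouse-genome designs read with Cy3-labelled RNA.

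Glucocorticoids circulate mostly bound to corticosteroid-binding globulin, a serpin without protease-inhibitor activity that the liver secretes and that Serpina6 encodes. Free hormone enters the cell and binds the receptor, which waits in the cytosol in a complex with heat shock proteins and immunophilins, then moves to the nucleus and switches on genes that carry glucocorticoid response elements. The surge of corticosteroids around birth is known to mature the liver and to induce enzymes of amino acid breakdown and glucose production.

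The 75th percentile of the deposited signal lay between 350.2 and 534.8 on the KO arrays and between 396.8 and 443.9 on the WT arrays. Celf1 itself lay at 9.02, 8.61 and 8.94 on the log2 scale in KO 1, 2 and 3, against 12.04, 11.84 and 11.78 in WT 1, 2 and 3. The labels call the mice male, yet Xist, the RNA of the inactive X chromosome, was above the detection level on arrays 2 and 3 of both genotypes, and the Y-linked genes Ddx3y, Kdm5d, Eif2s3y and Uty on array 1 of both genotypes. Same-numbered arrays deviated together from their group means, so differences within the 3 pairs are given beside the group means. Summed skeletal muscle markers (10 of 10 on the array) ranged from 1229 to 496428 units of scaled signal in KO and from 1102 to 103264 in WT, and were high on KO 2, KO 3 and WT 3. Summed exocrine pancreas markers (10 of 10) ranged from 9247 to 210252 in KO and from 3730 to 10023 in WT, with the high value on KO 2. Summed erythroid markers (9 of 9) were 257027 on KO 2 and between 646448 and 819923 on the other arrays. Of the muscle markers, Acta1, Myh8, Tnnt3, Tnnc2, Myl1 and Tnni2 were above the detection level on every array. The pancreatic lipase gene Pnlip was above it on WT 1 only (2.845, log2). On KO 2 Pnlip lay at 2.38, under the level of 2.90, while the other pancreas markers were highest on that array. Of the erythroid markers, Hemgn on KO 2 (15.46) lay inside the range of the other arrays, and the others were lowest on KO 2. Summed hepatocyte markers (7 of 8) ranged from 1717002 to 2035599 in KO and from 2113008 to 2273910 in WT, lower on each KO array. Beyond the values given beside single results, the part of these cell types in the differences below was not tested.

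Serpina6 was higher in every KO liver than in every WT liver, on both of its probes. After scaling of each array to a common 75th percentile, probe A_51_P133562 gave 11949, 2877 and 6209 units of signal in KO 1, 2 and 3, against 475, 416 and 58.7 units in WT 1, 2 and 3. The lowest KO array stood 6.05-fold above the highest WT array, and WT 3 stood well under the other WT arrays. On the log2 scale Serpina6 averaged 12.55 ± 1.03 in KO and 7.82 ± 1.69 in WT (SD, n = 3 each). The difference was 4.72 ± 0.90 (log2 ± SE), which is 26.4-fold. Among the 30896 features this was the 6th largest difference in either direction and the 5th largest toward higher signal in KO.

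Probe A_55_P2178036, the other probe of the gene, gave the same order of genotypes. Its scaled signal was 1791, 633 and 1322 in KO 1, 2 and 3, against 98.4, 97.5 and 8.16 in WT 1, 2 and 3. WT 3 was again the lowest array, at 3.03 on the log2 scale and close to the detection level of 2.66. The difference of this probe was 4.74 ± 1.00 (log2 ± SE), or 26.8-fold. Over the 6 arrays the distance between both probes stayed between 2.09 and 2.85 on the log2 scale, while each probe alone ranged over 7.67 and 7.78. The arrays therefore kept nearly the same spacing on both probes.

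**Figure D1:**
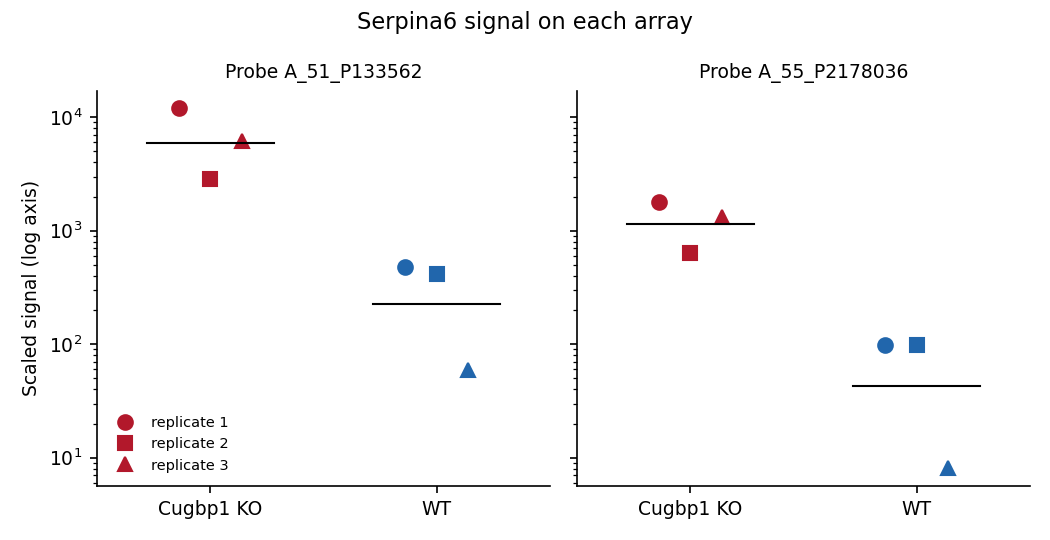
Scaled signal of Serpina6 (log axis) on the 3 Cugbp1 KO and 3 WT arrays for each of its 2 probes; points are arrays, with the marker shape giving the replicate number, and lines are geometric means. On both probes all 3 KO arrays lie above all 3 WT arrays, with the lowest KO array 6.05-fold and 6.44-fold above the highest WT array, and WT 3 is the lowest array.

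The size of the Serpina6 difference varied between pairs. KO 1 exceeded WT 1 by 4.65 on the log2 scale, KO 2 exceeded WT 2 by 2.79 and KO 3 exceeded WT 3 by 6.73, which are ratios of 25.1, 6.91 and 105.8. Pair 1 carried Y-linked transcripts and pairs 2 and 3 carried Xist. The part of sex in the Serpina6 difference was not tested. Without WT 3 the difference was 3.75 ± 0.60 (log2 ± SE), the smallest value with any single array left out. KO 1 against WT 1 and WT 2, the arrays with low sums of muscle markers, gave 4.75, a value with 1 KO array only. Of these arrays WT 2 carried Xist and the others Y-linked transcripts, and the part of muscle RNA was not tested. KO 2, the KO array with the lowest Serpina6 signal, was also the one with high pancreas and low erythroid sums. In whole liver a change in the number of cells of a type and a change in RNA per cell cannot be told apart from one gene. Summed hepatocyte markers were lower on each KO array than on each WT array, but the single markers were not uniform. Ttr and Apoa2 were lower on each KO array, whereas Alb, Apoa1, Serpina1a, Fgb and Hnf4a overlapped between genotypes. Hnf4a was highest on KO 2 (15.38, log2) and lowest on WT 3 (14.21). The part of cell numbers in the Serpina6 difference was not tested.

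The genes next to Serpina6 on its chromosome did not share its difference in size. Of the 10 protein-coding genes on each side, 15 passed the detection filter. Of these, 12 had lower and 3 higher means in KO, beside 50.4% of all features lower. Their median log2 difference was -0.21. By limma 0 of the 15 passed adjusted p 0.05 over all features, where 0.00324% of all features did. The groups did not overlap for 1 higher gene (Serpina9) and 3 lower genes (Ddx24, Ifi27l2a and Ifi27). Over all features 3.53% and 3.18% did not overlap in these directions. Serpina10, which encodes an inhibitor of coagulation proteases and is the adjoining gene on one side, averaged 14.13 ± 0.13 in KO and 14.34 ± 0.19 in WT on the log2 scale (SD, n = 3 each). Serpina16, the adjoining gene on the other side, was above the detection level on 2 arrays only. Serpina1a, Serpina1c, Serpina1d and Serpina1e, the alpha-1-antitrypsin genes of the same cluster, differed by -0.11, -0.12, -0.22 and -0.20, though probes of such near-identical genes may cross-hybridise. Serpina9 was the neighbour with the largest positive difference, 0.61 ± 0.24 (log2 ± SE, adjusted p = 1.00 by limma), and Ifi27l2a, an interferon-induced gene, had the largest negative one at -2.04 ± 0.32 (adjusted p = 0.645 by limma).

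**Figure D2:**
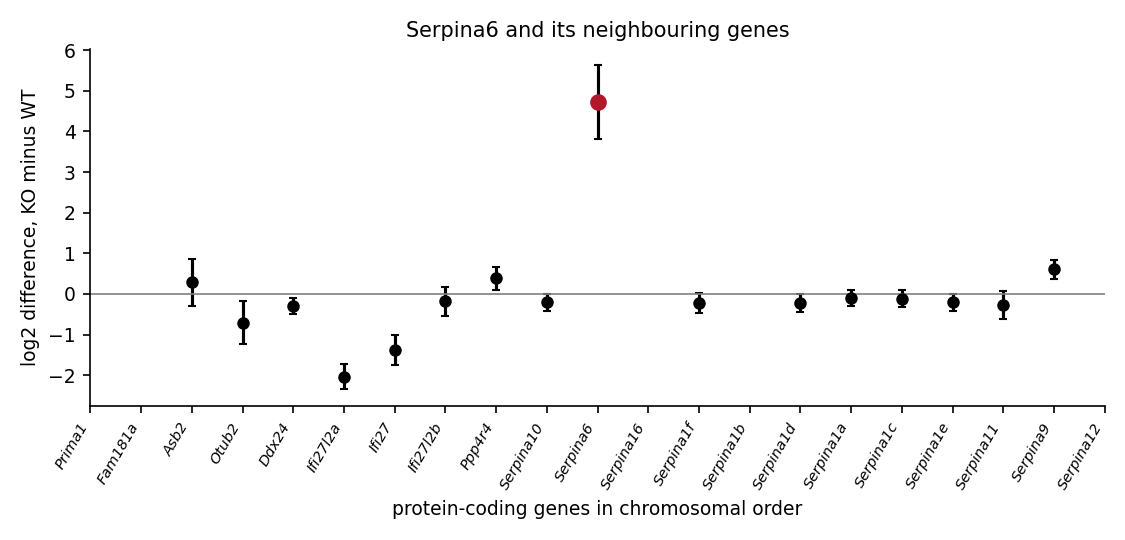
Log2 difference, KO minus WT, with its SE from the limma fit over 3 arrays of each genotype, for Serpina6 (red) and the 10 protein-coding genes on each side in chromosomal order; names without a point did not pass the detection filter or have no probe here. Serpina6 stands at 4.72, while the 15 neighbours tested lie between -2.04 and 0.61.

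Hsd11b1, which encodes the liver enzyme that regenerates corticosterone from its inert keto form, varied more between arrays than between genotypes. Its scaled signal was 7480, 24753 and 11560 in KO 1, 2 and 3, against 16879, 12468 and 27725 in WT 1, 2 and 3. The groups overlapped, since KO 2 exceeded both WT 1 and WT 2. The means were 13.65 ± 0.87 in KO and 14.14 ± 0.58 in WT (log2, SD, n = 3 each), a difference of -0.48 ± 0.50 (SE). Within the pairs it was -1.17, 0.99 and -1.26, so pair 2 ran against the others. The difference was -0.09 without KO 1, -0.17 without WT 3, -0.95 without KO 2 and -0.75 without WT 2.

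Nr3c1, the gene of the glucocorticoid receptor, had 2 probes that did not follow each other. On the brighter probe, A_55_P1967885, the scaled signal was 5207, 6631 and 5534 in KO 1, 2 and 3, against 5433, 4147 and 5501 in WT 1, 2 and 3. This was the steadiest of the members, with a log2 difference of 0.21 ± 0.23 (SE) and a spread between replicates (pooled SD) at percentile 16.6 of all features. On the dimmer probe, A_52_P254174, the signal was 521, 262 and 275 in KO 1, 2 and 3, against 469, 212 and 1290 in WT 1, 2 and 3. WT 3 was the highest array on this probe, and the log2 difference was -0.59 ± 0.66 (SE). The distance between the probes ranged from 2.09 on WT 3 to 4.66 on KO 2, and where each probe lies along the gene is not known here. Averaging the probes turned the sign of the gene's difference to -0.19. On the brighter probe it was 0.08 without WT 2 and 0.11 without KO 2.

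Tsc22d3 and Fkbp5 are induced by the receptor in most cell types. Tsc22d3 encodes a leucine zipper protein (GILZ) with anti-inflammatory action, and Fkbp5 an immunophilin that binds the receptor complex and dampens its signal. Tsc22d3 had a scaled signal of 2762, 2584 and 3311 in KO 1, 2 and 3, against 3685, 1984 and 3494 in WT 1, 2 and 3. The KO arrays lay inside the range of the WT arrays, and the difference was -0.04 ± 0.30 (log2 ± SE). Fkbp5 gave 6907, 7349 and 5595 in KO 1, 2 and 3, against 8291, 5918 and 4506 in WT 1, 2 and 3. Here too the KO arrays lay inside the WT range, and the difference was 0.12 ± 0.29 (log2 ± SE). Both genes differed between genotypes by less than the spread between replicates, and the sign of each turned when single arrays were left out.

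Tat, which encodes tyrosine aminotransferase, the classical glucocorticoid-induced enzyme of the perinatal liver, had the largest difference after Serpina6 and in the opposite direction. Its scaled signal was 690, 5759 and 2764 in KO 1, 2 and 3, against 2662, 8339 and 8758 in WT 1, 2 and 3. KO 1 was far below the other arrays, but KO 2 and KO 3 were above WT 1, so the groups overlapped. The means were 11.12 ± 1.55 in KO and 12.50 ± 0.97 in WT (log2, SD, n = 3 each), a difference of -1.38 ± 0.84 (SE). Each KO array was below its WT pair, by -1.95, -0.53 and -1.66 in pairs 1, 2 and 3. The difference was -0.54 without KO 1 and -2.07 without KO 2.

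Sgk1 and Zbtb16 complete the receptor-induced members. Sgk1 encodes a kinase of ion transport and cell survival that the mineralocorticoid receptor also induces, and its scaled signal was 878, 2652 and 2993 in KO 1, 2 and 3, against 812, 2643 and 1402 in WT 1, 2 and 3. Arrays with number 1 were the lowest in both genotypes, and pairs 1 and 2 differed by only 0.11 and 0.01 on the log2 scale. Pair 3 differed by 1.09, and the group difference was 0.40 ± 0.61 (log2 ± SE). Its size and sign depended on single arrays, with -0.01 without WT 1, 0.08 without KO 3, 0.17 without KO 2, 0.84 without WT 2 and 0.96 without KO 1. KO 1 against WT 1 and WT 2 gave -0.74. Zbtb16, a zinc-finger repressor gene (PLZF), gave 1849, 1063 and 2334 in KO 1, 2 and 3, against 1908, 699 and 6608 in WT 1, 2 and 3. WT 3 was the highest array, the KO arrays lay inside the WT range, and the difference was -0.31 ± 0.79 (log2 ± SE). It was 0.52 without WT 3, 0.01 without KO 2, -0.56 without KO 3 and -1.10 without WT 2, so neither size nor sign held when single arrays were left out. WT 3 was one of the arrays with high summed muscle markers, and the part of muscle RNA in the Zbtb16 level was not tested.

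**Figure D3:**
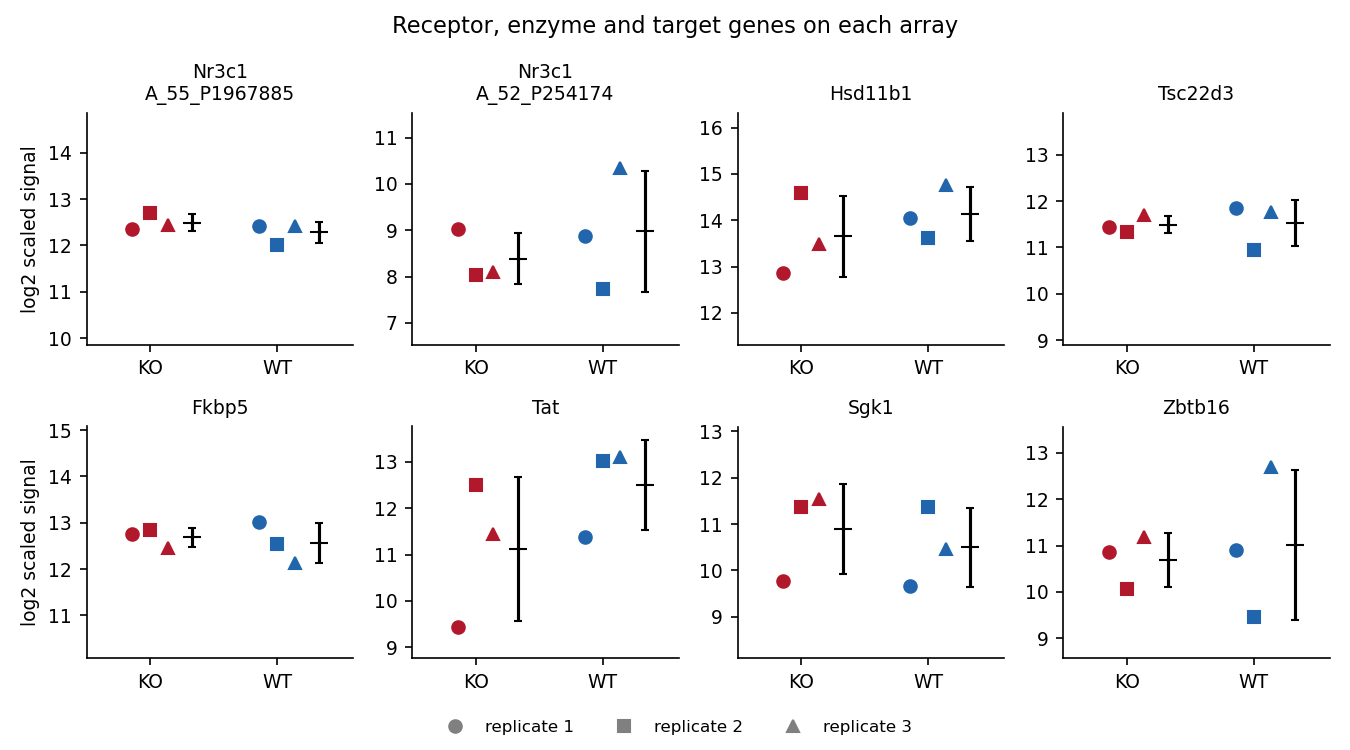
Log2 scaled signal of the 7 members other than Serpina6 on each KO and WT array, with both Nr3c1 probes; marker shapes give the replicate number, and bars are the mean and SD of 3 arrays. All panels span the same log2 range, and in each of the 8 panels the KO and WT arrays overlap.

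Start-site windows from RefSeq (GRCm38.p6, 250 bases before to 50 bases after a start) were matched by symbol to 5 of the members, Hsd11b1, Tsc22d3, Fkbp5, Tat and Sgk1, with 12 windows in all. They were searched on both strands for the single site TGTTCT and for the palindromic glucocorticoid response element, which is AGAACA and TGTTCT joined by any 3 bases and so contains the single site. The palindrome was found in 1 member window, one of the 6 of Sgk1, and in 3 of all 32851 windows (0.00913%). The single site was found in 4 member windows, 3 of Sgk1 and 1 of Tsc22d3, and in 19.0% of all windows. The Sgk1 window is shown because it is the member window that holds the whole element; it lies at chr10:21993640-21993939 on the plus strand, and capitals mark the palindrome, 189 to 175 bases before the start.
Sgk1: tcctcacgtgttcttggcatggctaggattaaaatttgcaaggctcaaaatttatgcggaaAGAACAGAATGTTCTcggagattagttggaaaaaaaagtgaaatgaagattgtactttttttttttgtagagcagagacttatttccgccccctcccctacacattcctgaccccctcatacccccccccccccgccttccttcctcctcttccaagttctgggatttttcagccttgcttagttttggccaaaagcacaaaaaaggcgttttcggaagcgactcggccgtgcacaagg
The match describes the letters of this window, and no binding was measured. The array signal of Sgk1, given above, does not tell which of its starts was used.

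Over the whole set, 4 of the 8 members had lower and 4 had higher means in KO, with a median log2 difference of 0.04, beside 50.4% of all features lower and a median of -0.0025. The groups did not overlap for 1 member, Serpina6, where 6.71% of all features did not overlap. By limma with adjusted p 0.05 over all features 0 of the 8 members passed, where 0.00324% of features (1 of 30896, lower in KO) did. A difference past 1 on the log2 scale was seen in 2 members, Serpina6 and Tat, and in 4.33% of all features. Before adjustment 919 features (2.97%) had p under 0.05. Nothing is read from these counts, since the set was chosen with this contrast in view. The 7 members other than Serpina6 lay between -1.38 and 0.40, and 6 of them within 1 on the log2 scale. The receptor and its induced members showed no common shift, and the name of a glucocorticoid response is used here for their known roles only.

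**Figure D4:**
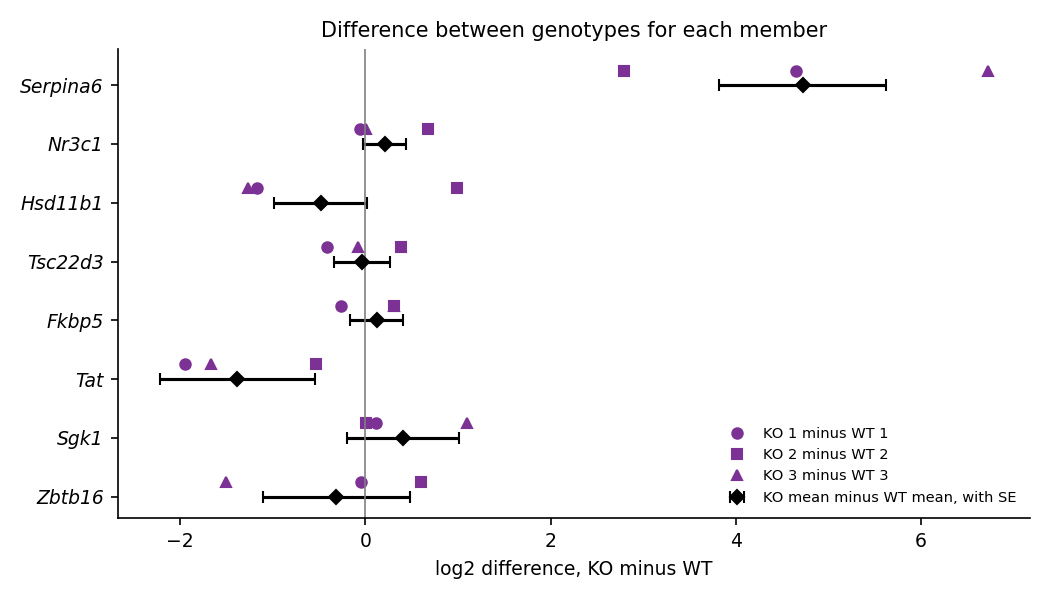
Log2 difference, KO minus WT, of each member; diamonds are differences of means with the SE from limma (3 arrays of each genotype), and purple markers above them are differences within pairs 1, 2 and 3. Serpina6 lies at 4.72 with all pairs above 0, Tat at -1.38 with all pairs below 0, and the pairs of Nr3c1, Hsd11b1, Tsc22d3, Fkbp5 and Zbtb16 fall on both sides of 0.

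The members differed widely in how much they varied within a genotype. The spread between replicates of Serpina6, Tat and Zbtb16 stood at percentiles 97.5, 96.8 and 96.0 of all features. That of Sgk1 and Hsd11b1 stood at percentiles 90.9 and 84.1, and that of Tsc22d3, Fkbp5 and Nr3c1 at percentiles 47.6, 42.6 and 16.6.

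Genes whose pattern over the 6 arrays was most like that of a member were sought among named features detected on all arrays, 16706 besides the member, by the root-mean-square difference of log2 values centred on each gene's mean. For Serpina6 these were Slc36a2 (an amino acid transporter gene) at 1.34, Fkbp11 at 1.48, Methig1 at 1.49, Mid1 at 1.51, Tinag at 1.52, AU015836 at 1.54, Foxq1 at 1.61 and Keg1 at 1.63. Serpina6 itself deviated from its own mean by 2.62 on this measure, so none of the 8 came close to its full pattern. They differed by 1.82 to 3.05 on the log2 scale, each higher in KO. That direction follows from their choice by likeness to Serpina6 and is no separate result. The nearest genes to the other members were closer, at 0.04 for Lipt1 and Nr3c1, 0.04 for Psme2 and Fkbp5, 0.08 for Cacna1f and Tsc22d3, 0.09 for Rarres2 and Hsd11b1, 0.19 for Bnip3 and Zbtb16, 0.20 for Lca5l and Sgk1 and 0.42 for Serpina3n and Tat. The other members deviated from their own means by only 0.20 (Nr3c1) to 1.26 (Tat), so smaller distances are partly given by the measure. Among the other members Fkbp5 was the nearest to Serpina6, at 2.51 (rank 3216 of 16706). Tat was the farthest, at 3.66 (rank 16609). A gene without any change over the arrays would lie at 2.62 from Serpina6, so the rank of Fkbp5 shows little likeness.

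The other genes of the pathway were described through 7 lists with 139 genes, 126 of which passed the detection filter. The list of Serpina gene neighbours holds genes near Serpina6 on its chromosome and not genes of the pathway. By limma 0 of the 126 passed adjusted p 0.05 over all features, where 0.00324% of all features did. An unadjusted p under 0.05 was found for 10 of the 126, beside 2.97% of all features. Of these 10 genes, 3 came from the list of Serpina gene neighbours. Every adjusted p printed for the list genes rounds to 1.00. The groups did not overlap for 3 higher and 8 lower genes, where 3.53% and 3.18% of all features did not overlap in these directions. Over all features 50.4% had lower means in KO, a share to set beside the counts of each list below.

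Enzymes and transporters that handle corticosteroids had a median log2 difference of 0.35, with 9 of 14 higher in KO. The groups overlapped for every one of them, and the median was -0.07 without KO 2 and -0.06 without WT 3, but 0.97 without KO 1, 0.68 without KO 3 and 0.62 without WT 2. H6pd, which supplies the cofactor of the Hsd11b1 enzyme, differed by -0.02 ± 0.29 (log2 ± SE), and Akr1d1, a steroid reductase gene, by 0.70 ± 0.84. Hsd17b6 (-1.75 ± 0.74), Srd5a2 (1.34 ± 0.75), Akr1c13 (0.70 ± 0.41), Cyp3a13 (-0.90 ± 0.54) and Akr1c6 (1.79 ± 1.16) had the smallest unadjusted p of this list, all with adjusted p = 1.00 by limma.

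The receptor's partners stood close to 0. Receptors and chaperones had a median of 0.02 with 7 of 14 higher, and coregulators a median of 0.05 with 11 of 19 higher, which was -0.03 without KO 1 and -0.06 without WT 3. Hspa8, the constitutive heat shock cognate chaperone gene, lay at 16.51, 16.62 and 16.34 in KO 1, 2 and 3, against 16.99, 17.18 and 17.10 in WT 1, 2 and 3 (log2). All KO arrays were lower, with a difference of -0.60 ± 0.20 (log2 ± SE, adjusted p = 1.00 by limma). Fkbp4, the immunophilin gene that promotes transport of the receptor to the nucleus, differed by 0.77 ± 0.33, and Nr3c2, the mineralocorticoid receptor gene, by 0.41 ± 0.23. Cebpa and Cebpb, liver transcription factor genes, differed by 0.44 ± 0.31 and -0.79 ± 0.57.

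Receptor-induced genes of liver had lower means in KO for 24 of 28 genes, beside 50.4% of all features, with a median of -0.46. The groups did not overlap for 2 of them, both lower, where 3.18% of all features did not overlap in this direction. Fgl1, a secreted hepatokine gene, lay at 15.30, 15.42 and 15.32 in KO 1, 2 and 3, against 16.04, 16.62 and 16.67 in WT 1, 2 and 3, a difference of -1.10 ± 0.25 (log2 ± SE, adjusted p = 1.00 by limma). Fgf21, the fasting hormone gene, was above the detection level on 1 KO array, KO 2 at 7.02, and on 3 WT arrays at 7.90, 7.60 and 7.43, so it passed the filter through WT. KO 1 was the lowest array for 18 of these 28 genes, against 15.1% of all features, a count made after the values were seen. The gluconeogenic enzyme gene Pck1, for example, lay at 11.91, 15.83 and 14.19 in KO 1, 2 and 3, against 13.49, 16.59 and 14.48 in WT 1, 2 and 3. The median of the list was -0.29 without KO 1 and -0.70 without WT 1, and below 0 without any other single array.

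Receptor-induced genes of most cell types had a median of -0.11, with 13 of 27 higher and 14 lower. Klf9, a Krüppel-like factor gene, was higher on all KO arrays, at 11.01, 11.61 and 11.07 in KO 1, 2 and 3 against 10.63, 10.84 and 10.88 in WT 1, 2 and 3 (log2), a difference of 0.45 ± 0.25 (SE, adjusted p = 1.00 by limma). Tgm2 (-0.96 ± 0.39) and Bcl6 (-1.09 ± 0.45) were lower on all KO arrays, both also with adjusted p = 1.00 by limma. The clock gene Per1 differed by 0.71 ± 0.37. The median of the list was 0.14 without WT 3, -0.02 without KO 2 and -0.05 without KO 1, and it was -0.38, -0.34 and -0.31 without KO 3, WT 2 and WT 1.

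Genes that the receptor is known to repress, mostly cytokines and chemokines, had a median of -0.55, with 9 of 13 lower in KO. Mmp13, a collagenase gene, was under the detection level on all KO arrays and was at least 6.62-fold lower than in WT (adjusted p = 1.00 by limma), with the KO arrays set at the detection level. It passed the filter through the WT arrays alone. Ccl7 (-3.13 ± 1.01) and Ccl2 (-2.79 ± 1.18), monocyte chemokine genes, were lower on all KO arrays, and each was highest on WT 3. The median of this list was -0.11 without WT 3, -0.25 without KO 1, -0.87 without KO 2 and -1.10 without WT 1.

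Genes around Serpina6 and in the neighbouring Serpina3 cluster had a median of -0.21, with 12 of 16 lower. All carry serpin names except Ppp4r4, which differed by 0.38 ± 0.29 (log2 ± SE). The median was -0.47 without WT 3, -0.12 without WT 1 and -0.10 with quantile normalization. Serpina3m (-2.29 ± 0.88) and Serpina3n (-1.74 ± 0.66), protease inhibitor genes, differed in the direction opposite to Serpina6, with adjusted p = 1.00 by limma for each.

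**Figure D5:**
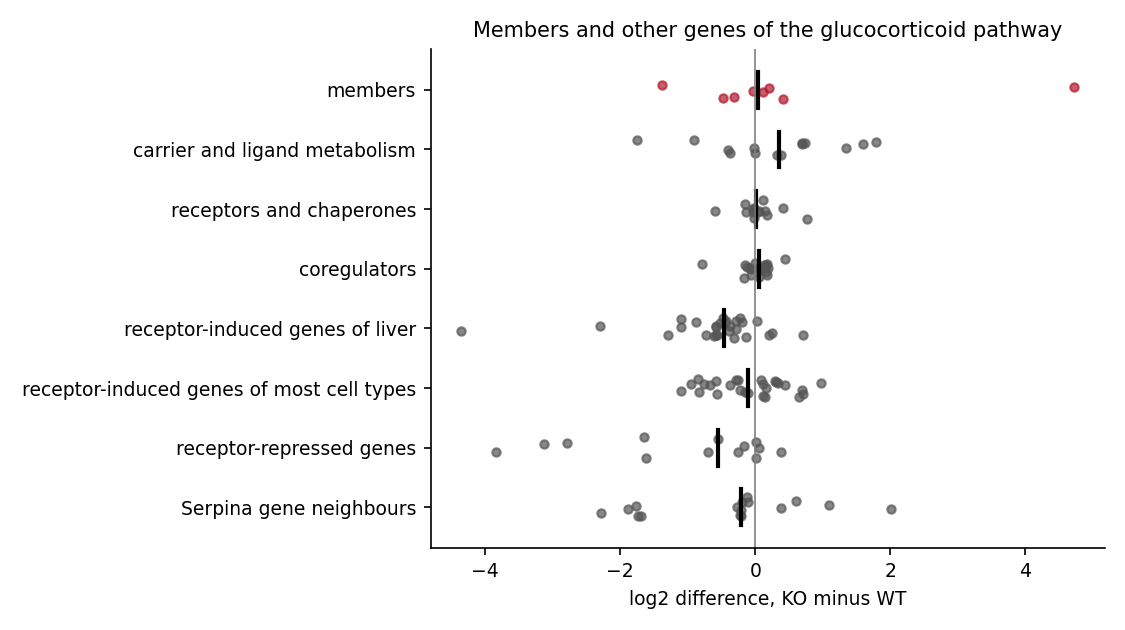
Log2 difference, KO minus WT, of the 8 members (red) and of the tested genes of 7 lists (gray). The list of Serpina gene neighbours holds genes near Serpina6, and the other lists hold genes of the glucocorticoid pathway. Each point is a gene, and black bars are medians. Serpina6 is the red point at 4.72; the lists have medians between -0.55 and 0.35.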

How the data were processed

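The members and gene lists were chosen with earlier results of these data known. The authors deposited linear signal intensity per probe (1 value for each of 55681 probes and 6 arrays) without flags. The submitters' processing notes name Agilent Feature Extraction, but which of its columns was deposited is not stated there. They also deposited log2 values, which equalled quantile-normalised log2 signal minus each probe's median within 0.01 for at least 99.96% of probes on every array. Column medians were 0.001, -0.011 and -0.011 for KO 1, 2 and 3 and 0.005, 0.001 and 0.004 for WT 1, 2 and 3.

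Here, 90 probes with an empty cell were left out. Each array was scaled by its 75th percentile of intensity, returned to the common level, floored at 1 and put on the log2 scale. A probe was detected above its array's 30th percentile and tested if detected on all 3 arrays of a genotype, and a gene was represented by its brightest probe. Where a gene was dim on all arrays of a genotype, those arrays were set at the detection level to give a bound. Symbols were updated through a gene table of GRCm38.p6, which kept 27364 and updated 3652 probe names and also gave the gene order. KO was compared with WT with limma 3.58.1 in R 4.3.3 (two-sided, Benjamini-Hochberg over all features, no covariates), and the fit was tested on simulated data. The number of arrays limits the precision.

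Deviations of same-numbered arrays from their group means correlated at 0.36, 0.26 and 0.30, so the numbers, taken from the titles, were treated as pairs in an alternative fit. Other alternatives changed scaling, background, filter, floor, probe choice and variance model, or left out arrays. The rule for naming genes took the members with all probes, up to 5 genes per list with the smallest unadjusted p, the genes nearest in pattern (8 for Serpina6, 3 for the other members), Celf1 and sex-linked genes. Further list genes were named for their roles or after their values were seen.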

Additional observations from a re-analysis of the deposited data

How the results depend on the processing

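The limits of these results are the number of arrays and the spread between them. Serpina6 kept its direction under all 24 alternatives, between 2.79 in pair 2 and 6.73 in pair 3, between 3.75 and 5.26 with any 1 array left out, and at 4.72 with the replicate number as a block. Of the 8 members, 1 was lower in pair 2 alone and between 2 and 4 were lower with 1 array left out (2 without KO 2). None of the members passed the threshold in the 21 alternatives with a test. The features past adjusted p 0.05 numbered 0 with the replicate block, with no filter, with a floor of 16, with pairs 2 and 3 alone and with KO 1 against WT 1 and WT 2; they numbered 2 with median scaling, with detection at the 50th percentile and with an intensity trend, 3 with each probe by itself, 11 with array weights, and 0 to 1 with 1 array left out (0 without KO 1, WT 1, WT 2 or WT 3). The count at unadjusted p under 0.05 ran from 505 to 3290, and was 1573 with the replicate block. The cause of these shifts was not tested. Without scaling the median of all features moved to 0.11, and Tsc22d3 turned to 0.08. Medians of the lists moved as follows. Corticosteroid-handling genes stood at -0.83 in pair 1, 1.37 in pair 2 and -0.77 for KO 1 against WT 1 and WT 2. Coregulators stood at -0.06 in pair 2 and 0.21 in pair 3, and receptor-repressed genes at 0.11 in pair 2 and -1.73 in pair 3. Receptor-induced genes of most cell types ranged from -0.38 to 0.14 with 1 array left out and stood at 0.24 with array weights, and receptors and chaperones at 0.13 without scaling and 0.23 in pair 2. The list of Serpina gene neighbours stood at -0.10 without scaling, with quantile normalization and with the deposited log2 values. It stood at -0.55 in pair 2, at -0.11 for KO 1 against WT 1 and WT 2 and between -0.47 and -0.12 with 1 array left out. Among the other members the sign of Tat held in all 24 alternatives, and that of Hsd11b1 in all but pair 2 (0.99). Zbtb16 was 0.47 with array weights. With the replicate number as a block the SE was lower for Serpina6 (0.75), Tat (0.34), Sgk1 (0.30), Zbtb16 (0.44), Tsc22d3 (0.25) and Fkbp5 (0.24). It was slightly higher for Hsd11b1 (0.51) and Nr3c1 (0.25).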

Other observations

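Some other serpin genes of the region were at their lowest on WT 3, the array on which Serpina6 was lowest. Serpina3g, Serpina3m, Serpina3n, Serpina1c, Serpina1d and Serpina1e were instead highest on WT 3. Serpina5 and Serpina4-ps1 are given here and were chosen after their values were seen. Serpina5, which encodes an inhibitor of activated protein C, lay at 9.01, 6.81 and 8.09 in KO 1, 2 and 3, against 9.33, 8.59 and 2.74 in WT 1, 2 and 3 (log2). Serpina4-ps1 lay at 12.05, 8.54 and 10.25 in KO 1, 2 and 3, against 12.18, 10.64 and 1.98 in WT 1, 2 and 3. Unlike Serpina6, both were at least as high on WT 1 as on the KO arrays. The detection level of WT 3 was 2.66, so on that array Serpina4-ps1 was under it and Serpina5 close to it.

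Some genes were listed as markers of a neighbouring tissue, the adrenal cortex, which is the source of the hormone. Whether each of them, Cyp17a1 included, is particular to that tissue was not tested. Cyp11b1, the gene of the last enzyme of corticosterone synthesis, was above the detection level on WT 3 alone, at 6.25 on the log2 scale, and Cyp11b2, the aldosterone synthase gene, on no array. Cyp17a1, a steroid hydroxylase gene, lay between 12.21 and 13.42 on the KO arrays and between 12.99 and 13.41 on the WT arrays. The markers did not follow each other: Cyp11a1 was highest on WT 3 (4.98), whereas Cyp21a1 (8.22) and Hsd3b1 (12.31) were lowest there. The presence of adrenal tissue was not tested. Tdo2, the tryptophan-degrading enzyme gene that glucocorticoids induce, lay at 1.63, 9.71 and 5.46 in KO 1, 2 and 3, against 5.78, 6.07 and 6.78 in WT 1, 2 and 3. Its value on KO 1 was under the detection level of that array, 2.98.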
